A study of Mus musculus with 16 samples.

Results

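The miR-181 family was followed in the lateral ventricle (LV) wall of WT and Dgcr8+/- mice. Its members were the 6 mature miRNAs mmu-miR-181a-5p, mmu-miR-181b-5p, mmu-miR-181c-5p, mmu-miR-181d-5p, mmu-miR-181a-1-3p and mmu-miR-181c-3p, chosen by their names in the annotation of the array, out of 1881 mouse miRNAs on it. The 8 WT mice were littermates of the 8 Dgcr8+/- mice, all were males of 8 months on a C57BL/6J background, and each mouse gave 1 one-colour Agilent array from 100 ng of total RNA. Dgcr8+/- mice carry 1 inactive copy of Dgcr8 in every cell of the body. The arrays were run to find the miRNAs whose levels in the LV wall change with the loss of a Dgcr8 copy. The array holds no probe for Dgcr8 mRNA, so the genotype itself could not be checked on it. The dissected LV wall holds several cell types beside the ciliated ependymal cells, so fewer cells of a type and less of a miRNA per cell cannot be told apart.

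Dgcr8 is the RNA-binding partner of the nuclease Drosha, and together they cut the hairpins of primary miRNA transcripts in the nucleus. Dicer then cuts each hairpin into a duplex, of which 1 arm is usually kept in the silencing complex while the other, the passenger arm, is mostly degraded. The family is known from lymphocytes, where miR-181a tunes the sensitivity of the T-cell receptor, and is also abundant in the brain. Its 5p arms are the guide arms. A miRNA finds its targets mainly through its seed, bases 2 to 8 from the 5′ end.

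The mature sequences show which members share a seed and how little else separates them. They come from RefSeq (GRCm38.p6), which held 1608 of the 1881 array miRNAs and all 6 members, and the capitals mark the seed.
mmu-miR-181a-5p: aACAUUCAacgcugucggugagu
mmu-miR-181b-5p: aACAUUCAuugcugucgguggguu
mmu-miR-181c-5p: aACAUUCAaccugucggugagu
mmu-miR-181d-5p: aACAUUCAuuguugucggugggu
mmu-miR-181a-1-3p: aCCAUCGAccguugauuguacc
mmu-miR-181c-3p: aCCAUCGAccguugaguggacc

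The 4 guide arms had the same seed, ACAUUCA, and among the array miRNAs with a RefSeq sequence 0 outside the family carried it. Both passenger arms had the seed CCAUCGA, which 0 of those outside the family held. Outside the seed, the sequences paired across the clusters and not within them. By edit distance (the number of bases changed, added or removed), miR-181a-5p and miR-181c-5p were 1 step apart and miR-181b-5p and miR-181d-5p were 2 steps apart. Within the clusters, miR-181a-5p and miR-181b-5p were 4 steps apart and miR-181c-5p and miR-181d-5p were 5. The probe sequences are not among the columns used here, so how far a probe for one member also bound its near neighbour was not tested.

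The family is coded by 6 hairpin genes in 3 clusters. In RefSeq, miR-181a-5p has 2 copies on the plus strand, at chr1:137966468-137966490 in Mir181a-1 and at chr2:38852741-38852763 in Mir181a-2. Each is followed by a copy of miR-181b-5p, at chr1:137966650-137966673 after 159 bases and at chr2:38853845-38853868 after 1081 bases. A value for miR-181a-5p or miR-181b-5p is therefore the sum of a pair of loci. The chromosome 2 pair lies within Nr6a1, which codes for an orphan nuclear receptor, and its antisense transcript Nr6a1os, whereas the chromosome 1 pair overlaps no other gene. The third cluster is on the minus strand of chromosome 8, between Nanos3 and Mir23a, with miR-181c-5p at chr8:84178924-84178945 and miR-181d-5p at chr8:84178759-84178781, and overlaps no other gene. The passenger arm miR-181a-1-3p, at chr1:137966508-137966529, is specific to the chromosome 1 hairpin, and miR-181c-3p lies at chr8:84178885-84178906.

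Each member was measured by 2 probes with 15 spots each. Values are log2 signals after quantile normalization, which gives all arrays the same distribution, so every change is read against the rest of the array. Tests covered the 495 miRNAs that the software detected in 8 or more of the 16 mice, and 5 of the 6 members were among them. These 5 members were detected on all 16 arrays, and no spot of a member was saturated. Log2 fold changes are Dgcr8+/- minus WT, and adjusted p-values are from limma with Benjamini-Hochberg adjustment over all 495 miRNAs. Both slides held both genotypes, with 6 WT and 2 Dgcr8+/- arrays on slide 1 and 2 WT and 6 Dgcr8+/- arrays on slide 2. Before normalization the arrays of Dgcr8+/- mice were dimmer, with a difference of −0.33 in the median log2 signal (2-sided exact permutation test, p = 0.00171). Dgcr8+/- replicate 2, on slide 1, stood apart, with a median of 5.27 against 5.57 to 5.91 for the other Dgcr8+/- arrays and a hybridisation spike-in signal of 13.1 on the log2 scale against 14.2 to 14.5. Results that rest on this mouse are given with and without it. Among the WT arrays, replicate 6, also on slide 1, had a hybridisation spike-in signal of 15.4 against 14.3 to 14.6 for the others. Its median of 5.80 was the lowest in WT.

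Relative to the other miRNAs, the guide arms of the miR-181a/b clusters rose in Dgcr8+/- mice, miR-181a-5p by 19.2% and miR-181b-5p by 18.8%, whereas with no normalization between arrays their log2 fold changes were below 0. After normalization both had a log2 fold change of 0.25. The guide arms of the miR-181c/d cluster, which carry the same seed, did not pass the test, with log2 fold changes of 0.06 and −0.09. Of the 5 tested members, 2 were higher and 0 were lower at an adjusted p below 0.05. In the background, 28.3% of the 495 miRNAs were higher and 27.9% were lower, so 2 of 5 is no result particular to the family. The median log2 fold change was 0.16 over the 5 tested members and 0.04 over all 495. The groups overlapped for each of the 5 members, whereas they did not overlap for 24.2% of the tested miRNAs.

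**Figure D1:**
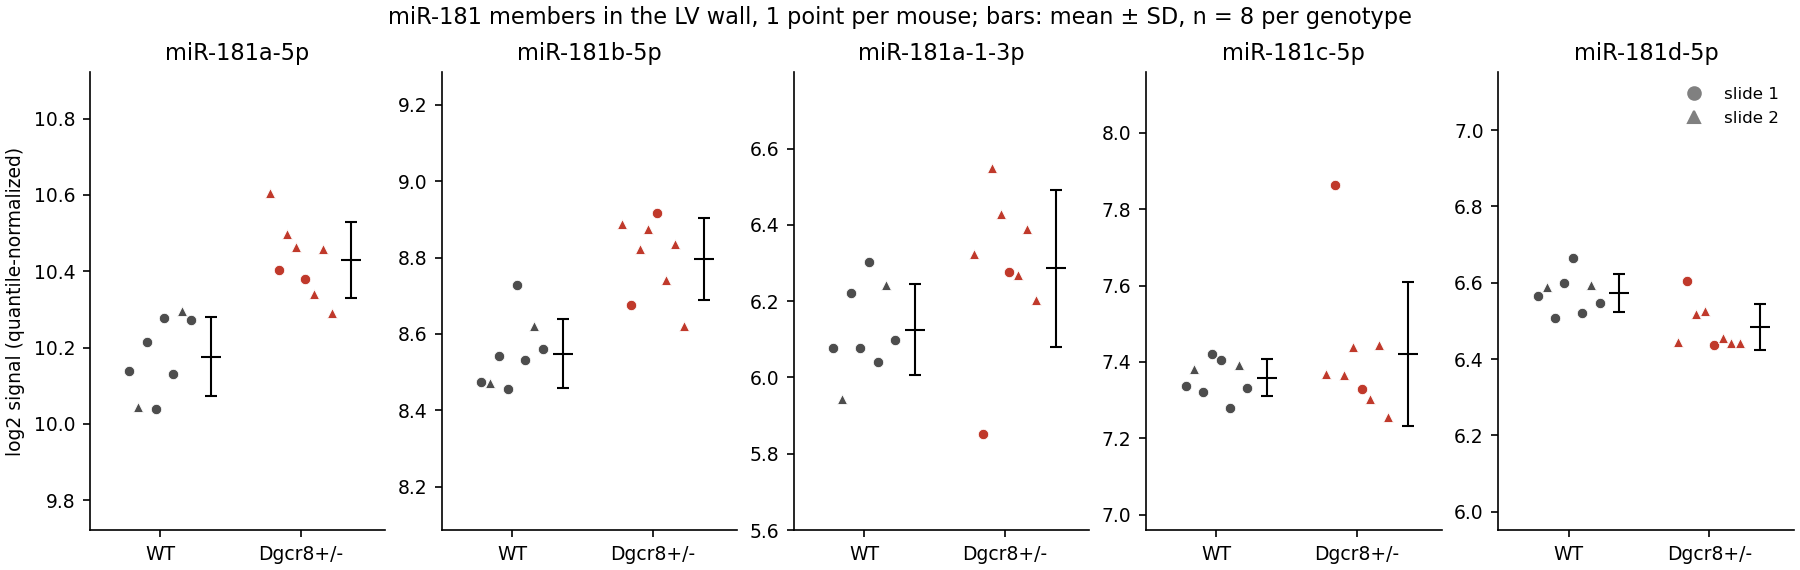
Log2 signal after quantile normalization (vertical axis) of the 5 tested members in each of the 8 WT and 8 Dgcr8+/- mice; points are mice (circles slide 1, triangles slide 2), bars are the mean and SD, and each panel has its own range. The Dgcr8+/- points of miR-181a-5p and miR-181b-5p sit mostly above the WT points, those of miR-181d-5p mostly below, and for miR-181c-5p a single Dgcr8+/- mouse sits at 7.86.

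MiR-181a-5p, the member best known from lymphocyte receptor signalling, had log2 signals of 10.04 to 10.30 (median 10.18) in the WT mice and 10.29 to 10.61 (median 10.43) in the Dgcr8+/- mice. In 7 of 8 Dgcr8+/- mice it was above every WT mouse, and replicate 8 was just inside the WT range. The mean log2 signal was 10.18 ± 0.10 (SD, n = 8) in WT and 10.43 ± 0.10 (SD, n = 8) in Dgcr8+/- mice. The log2 fold change was 0.25 (standard error 0.05, 95% interval 0.14 to 0.37, limma adjusted p = 0.000859), which is 19.2% higher. It was 0.21 within slide 1 and 0.27 within slide 2. Both probes moved alike, by 0.27 and 0.24.

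MiR-181b-5p, which is transcribed with miR-181a-5p from both loci, spanned 8.45 to 8.73 around a median of 8.54 in WT, and 8.62 to 8.92 around 8.83 in Dgcr8+/- mice. All 8 Dgcr8+/- mice were above the WT median and 6 of them were above every WT mouse. The means were 8.55 ± 0.09 (SD, n = 8) and 8.80 ± 0.11 (SD, n = 8). The log2 fold change was 0.25 (standard error 0.05, 95% interval 0.14 to 0.36, limma adjusted p = 0.000869), which is 18.8% higher. It was 0.25 within each slide, and the probes gave 0.26 and 0.24.

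MiR-181a-1-3p is the passenger arm of the chromosome 1 copy of miR-181a. It lay at 5.94 to 6.30 (median 6.09) in WT against 5.85 to 6.55 (median 6.30) in Dgcr8+/- mice. In Dgcr8+/- mice, 7 of 8 were above the WT median, and replicate 2 was the lowest of all 16 mice. The log2 fold change was 0.16 (standard error 0.08, 95% interval −0.01 to 0.33, limma adjusted p = 0.101) and did not pass the test. Without Dgcr8+/- replicate 2 it was 0.22 (limma adjusted p = 0.00446). The value was −0.07 within slide 1, where replicate 2 is 1 of the 2 Dgcr8+/- arrays, and 0.27 within slide 2.

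MiR-181c-5p differs from miR-181a-5p by 1 step but comes from chromosome 8. It took values of 7.28 to 7.42 in WT (median 7.36) and of 7.25 to 7.86 in Dgcr8+/- mice (median 7.37). The highest value belonged to Dgcr8+/- replicate 2, and the other 7 mice, at 7.25 to 7.44, spanned the WT range and went slightly beyond both ends. The log2 fold change was 0.06 (standard error 0.07, 95% interval −0.08 to 0.21, limma adjusted p = 0.448). Without replicate 2 it was −0.00077, and with cyclic loess normalization it was −0.02. It was 0.25 within slide 1, which holds replicate 2, and −0.02 within slide 2. Before normalization, the signal of miR-181c-5p on the array of replicate 2 was 131 signal units, inside the 119 to 165 units of the other Dgcr8+/- arrays. On that array the other guide arms were dimmer than on every other Dgcr8+/- array. There, miR-181a-5p was at 782.5 units against 1078 to 1401, miR-181b-5p at 233.9 against 338 to 436.1, and miR-181d-5p at 65.2 against 66.1 to 84.4. The probes differed in sign, at 0.12 and −0.03, and neither difference passed a 2-sided exact permutation test (p = 0.0598 and p = 0.724).

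MiR-181d-5p, the cluster partner of miR-181c-5p, had the only negative log2 fold change among the tested members after quantile normalization, although scaling to the 75th percentile put it at 0.0084. It reached from 6.51 to 6.67 in WT (median 6.58) and from 6.44 to 6.61 in Dgcr8+/- mice (median 6.45). In 5 of 8 Dgcr8+/- mice it was below every WT mouse. The log2 fold change was −0.09 (standard error 0.04, 95% interval −0.17 to −0.01, limma adjusted p = 0.0528), just short of the threshold. It lay on the other side without Dgcr8+/- replicate 2 (−0.11, limma adjusted p = 0.00444), without WT replicate 3 (−0.10, adjusted p = 0.0449) and without WT replicate 6 (−0.10, adjusted p = 0.0489). It was −0.05 within slide 1 and −0.12 within slide 2. The probes differed in size, with −0.19 for one (2-sided exact permutation test, p = 0.000932) and −0.04 for the other (p = 0.17 by the same exact test).

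MiR-181c-3p, the passenger arm of the miR-181c hairpin, was detected on 0 of the 16 arrays. Its log2 signals ran from the floor of 0 up to 1.38 in WT and up to 1.08 in Dgcr8+/- mice, and signals not detected by the software give no fold change. The other 4 passenger arms of the family on the array, miR-181a-2-3p, miR-181b-1-3p, miR-181b-2-3p and miR-181d-3p, were detected on 0 arrays as well. MiR-181a-1-3p was thus the only passenger arm detected among the 6 on the array.

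**Figure D2:**
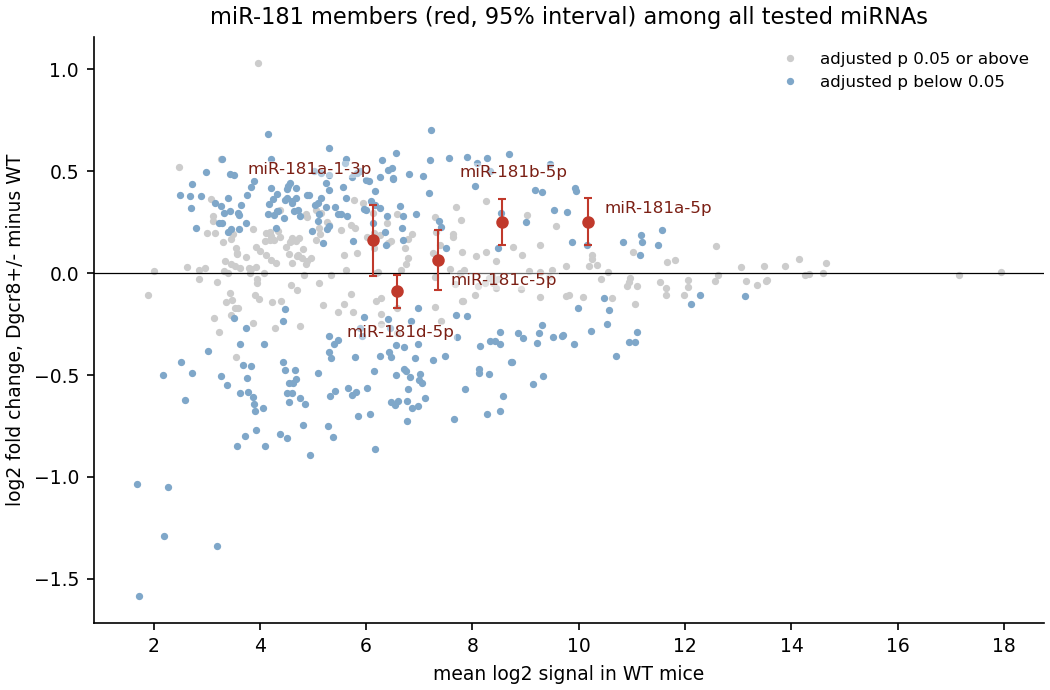
Log2 fold change, Dgcr8+/- minus WT (vertical axis), against the mean log2 signal in WT mice (horizontal axis) for the 495 tested miRNAs; red points with 95% intervals are the 5 tested members, blue points have a limma adjusted p below 0.05. MiR-181a-5p and miR-181b-5p, at 0.25, and miR-181d-5p, at −0.09, all sit within the cloud of the other miRNAs.

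The clusters were compared directly through differences between members on the same array. This within-array difference needs no comparison of levels between probes, since only its change from WT to Dgcr8+/- mice is read, and a scale factor of an array drops out of it. Of the 6 pairs set up, 5 had both members tested, and p-values were adjusted over these 5. Over all 122265 pairs of tested miRNAs, the median size of such an unequal change was 0.34 on the log2 scale, and the WT and Dgcr8+/- values did not overlap for 23.8%.

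Within the miR-181a/b clusters, the difference miR-181a-5p minus miR-181b-5p changed by 0.0043 on the log2 scale (95% interval −0.07 to 0.08, 2-sided exact permutation test, p = 0.91, adjusted p = 0.91). Only 0.698% of all pairs had a smaller unequal change after quantile normalization. The value depended on the scaling. It was 0.062 with no normalization, with the 75th percentile and with the labelling spike-ins (exact permutation test, adjusted p = 0.0751), and 0.079 with cyclic loess (adjusted p = 0.0648 by the same exact test). It was −0.04 within slide 1 and 0.02 within slide 2.

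Within the miR-181c/d cluster, the difference miR-181c-5p minus miR-181d-5p was 0.74 to 0.82 in WT mice and 0.81 to 1.26 in Dgcr8+/- mice, with replicate 2 at the top. It changed by 0.15 (95% interval 0.04 to 0.26, 2-sided exact permutation test, p = 0.000466, adjusted p = 0.00117), with 0.29 within slide 1 and 0.10 within slide 2. Without replicate 2 the change was 0.11 and still passed, but it lost the call under 5 alternatives, at 0.04 to 0.06, of which 3 scale whole arrays and so give the same value. It was −0.03 when spots with an outlier mark were kept. The unequal change of the c/d partners therefore depended on the processing.

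Between the clusters, miR-181b-5p and miR-181d-5p moved apart. Their difference was 1.86 to 2.06 in WT mice and 2.07 to 2.48 in Dgcr8+/- mice, with no overlap, as for 23.8% of all pairs. It changed by 0.34 (95% interval 0.22 to 0.46, 2-sided exact permutation test, p = 0.000155, the smallest that 8 mice against 8 allow, adjusted p = 0.000777). The change was 0.29 within slide 1 and 0.37 within slide 2. It kept its direction and its call under each of the 11 alternatives of processing run for the pairs, at 0.25 to 0.36. These are not all separate checks. No normalization and the settings that scale whole arrays give the same value by construction, 0.25 (exact permutation test, adjusted p = 0.028). The alternative floors lie below the signals of both members and repeated the main 0.34. In size it stood in the middle of the array, as 49.5% of all pairs changed less.

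The other pair between clusters, miR-181a-5p and miR-181c-5p, had a difference of 2.62 to 2.94 in WT mice and 2.54 to 3.24 in Dgcr8+/- mice. Replicate 2 gave the 2.54, and the other 7 Dgcr8+/- mice, at 3.01 to 3.24, were above every WT mouse. The change was 0.19 (95% interval 0.01 to 0.37, 2-sided exact permutation test, p = 0.0402, adjusted p = 0.0671). Without replicate 2 it was 0.26 (exact permutation test, adjusted p = 0.000777). It was −0.04 within slide 1 and 0.30 within slide 2.

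**Figure D3:**
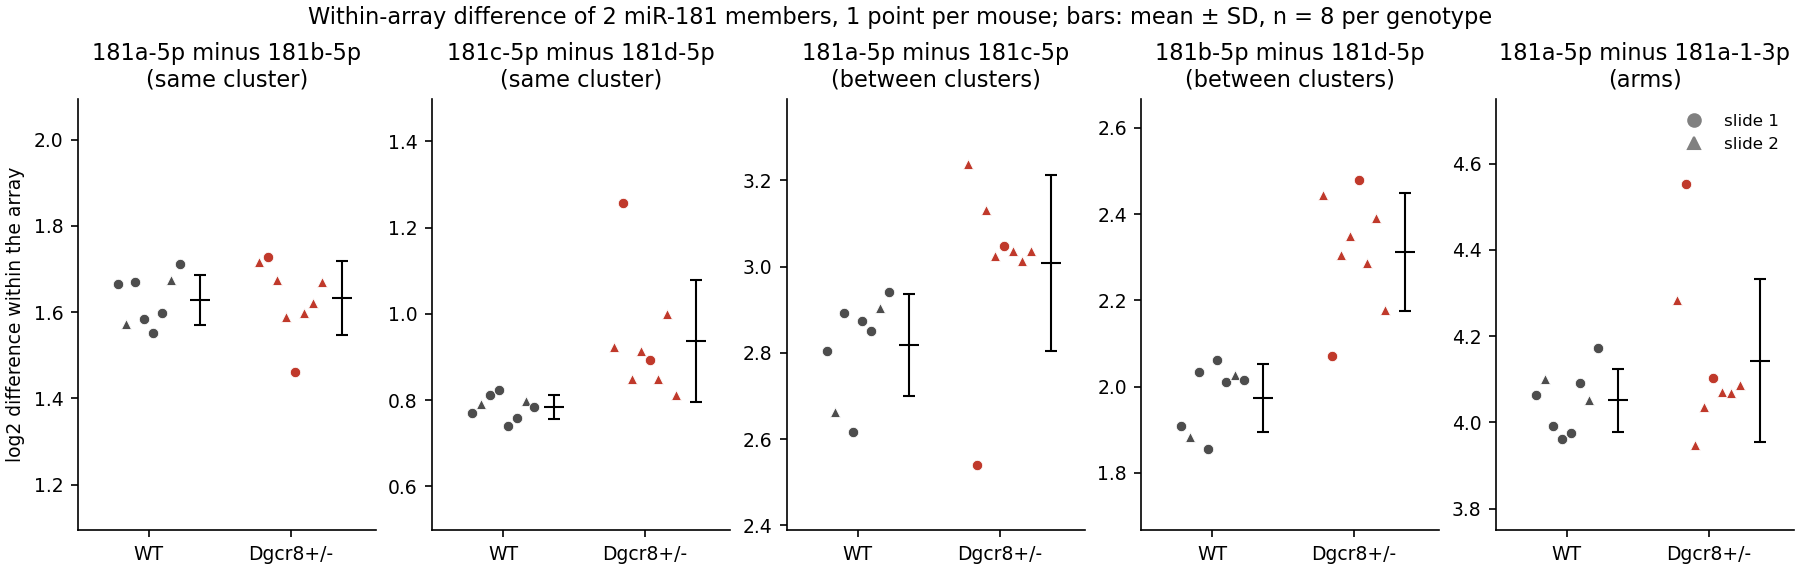
Within-array log2 difference of 2 members (vertical axis) for the 5 pairs in each of the 8 WT and 8 Dgcr8+/- mice; points are mice (circles slide 1, triangles slide 2) and bars are the mean and SD. Among the 5 pairs, the genotypes separate fully only for miR-181b-5p minus miR-181d-5p (1.86 to 2.06 against 2.07 to 2.48). Over all pairs of tested miRNAs, 23.8% separate fully. Dgcr8+/- replicate 2 sits apart at 1.26 for c minus d and at 2.54 for a minus c.

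The arms of the miR-181a hairpins did not pass the test for an unequal change. The difference miR-181a-5p minus miR-181a-1-3p was 3.96 to 4.17 in WT mice and 3.95 to 4.55 in Dgcr8+/- mice, with replicate 2 at the top. It changed by 0.09 (95% interval −0.06 to 0.25, 2-sided exact permutation test, p = 0.242, adjusted p = 0.303), with 0.28 within slide 1 and 0.0056 within slide 2. Without replicate 2 the change was 0.035 (exact permutation test, adjusted p = 0.597). In a limma fit of 3p minus 5p over the 98 hairpins with both arms tested, 17.3% of the hairpins passed the test in either direction. The miR-181a-1 hairpin did not pass, with −0.09 (standard error 0.07, limma adjusted p = 0.43), and −0.035 without replicate 2. The guide arm also comes from Mir181a-2, whose passenger arm was detected on no array, so the ratio is not that of a single hairpin. The arms of the miR-181c hairpin could not be compared.

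The direction of the single members depended on the scaling of the arrays, as quantile normalization removes a shift shared by most miRNAs. With no normalization, the whole set of 495 miRNAs had a median of −0.39. MiR-181a-5p and miR-181b-5p were then at −0.22 (limma adjusted p = 0.151) and −0.28 (adjusted p = 0.0821), and miR-181c-5p and miR-181d-5p at −0.48 (adjusted p = 0.00094) and −0.53 (adjusted p = 0.000255). Scaling to the labelling spike-ins, which are foreign RNAs put into each sample ahead of the dye reaction, gave a median of −0.38 and nearly the same member values. Under each of the 5 scalings the miR-181a/b guide arms were above those of miR-181c/d. For no normalization, the labelling spike-ins and the percentile scaling, distances between members and from the median are the same by construction. In each of these settings miR-181a-5p was 0.17 above the median of all miRNAs, so their agreement is no added support. Taken against the median of all miRNAs, miR-181a-5p was at 0.17 to 0.22 and miR-181b-5p at 0.11 to 0.21 throughout, miR-181d-5p was at −0.14 to −0.13, and miR-181c-5p was between −0.09 and 0.03. The labelling spike-ins themselves differed by −0.0056 on the log2 scale between the genotypes (2-sided exact permutation test, p = 0.961).

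**Figure D4:**
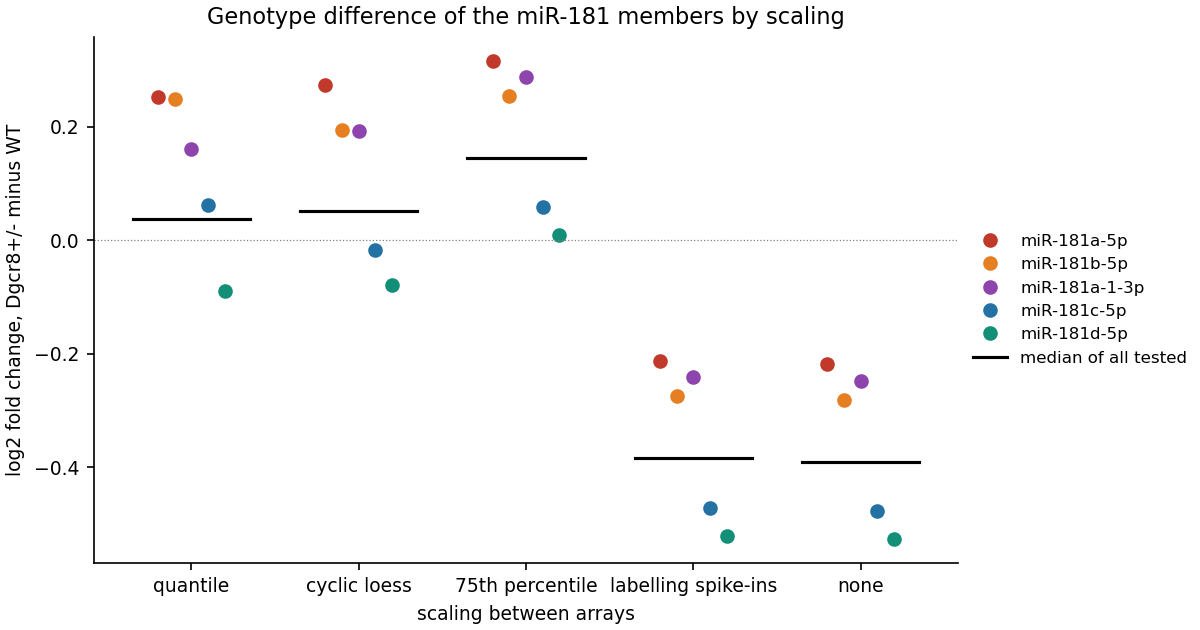
Log2 fold change, Dgcr8+/- minus WT, of the 5 tested members and the median of all tested miRNAs under 5 scalings of the arrays. With no scaling and with the labelling spike-ins the points and the median (−0.39 and −0.38) are below 0. MiR-181a-5p stays above and miR-181d-5p below the median under each scaling. With no scaling, the labelling spike-ins and the percentile scaling, the distances from the median are the same by construction.

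From mouse to mouse within a genotype, miR-181a-5p varied most like a few miRNAs of other families. Over the 16 arrays, after each genotype's mean was taken off, the highest Pearson correlations among 494 miRNAs outside it were those of miR-93-5p (0.78), miR-19b-3p (0.73), miR-219a-2-3p (0.73), miR-20a-5p (0.72) and miR-23b-3p (0.71), with miR-181b-5p at 0.73 ranking 3. The other members ranked lower, with 0.53 for miR-181a-1-3p, 0.09 for miR-181d-5p and 0.06 for miR-181c-5p. These correlations are a description of arrays that share slides and normalization. Of the miRNAs most like miR-181a-5p, miR-93-5p, miR-19b-3p and miR-20a-5p are of the miR-17-92 cluster and its paralogs, and miR-219a-2-3p is an oligodendrocyte miRNA. Only miR-219a-2-3p among these 5 passed the test between genotypes, with a log2 fold change of 0.29 (limma adjusted p = 0.00887).

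Other families that, like miR-181, share a seed over several loci were read in the same way. Of all 495 tested miRNAs, 28.3% were higher and 27.9% were lower. In the let-7 family, known as a brake on growth, 1 of 9 members was lower (let-7g-5p, −0.11, limma adjusted p = 0.0317) and 0 were higher, with a median log2 fold change of −0.04 and values from −0.15 to −0.03. Among the 5 guide arms of the miR-30 family, 1 was lower and 3 were higher, from −0.18 for miR-30e-5p to 0.25 for miR-30d-5p (limma adjusted p = 0.000155 for both), with a median of 0.09. In the miR-29 family, whose targets include collagens, 0 of 3 members passed and the values ran from −0.03 to −0.0051. Of these 3 families, only miR-30 held, after quantile normalization, log2 fold changes of both signs. Of 5 neuron-enriched miRNAs, which are no seed family, miR-128-3p was lower (−0.11, limma adjusted p = 0.0386) and miR-138-5p was higher (0.21, limma adjusted p = 0.00123), with a median of 0.07.

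MiRNAs that mark the cell types of the tissue were read beside the members. The shares over all 495 tested miRNAs, to set beside the counts, were 28.3% higher and 27.9% lower. Of 6 ciliated-cell miRNAs of the miR-34b/c and miR-449 group, miR-449c-5p was detected on 0 arrays, and 0 of the other 5 passed the test (1 had an unadjusted limma p under 0.05). After quantile normalization all 5 had positive log2 fold changes, from 0.15 for miR-449a-5p to 0.35 for miR-34c-5p (limma adjusted p = 0.0594), with a median of 0.29, against the 0.25 of miR-181a-5p and miR-181b-5p. Their summed log2 signal was 9.08 to 10.33 in WT and 9.76 to 10.62 in Dgcr8+/- mice, a difference of 0.31 between the means. Among immune-cell miRNAs, where the miR-181a/b clusters are also active, 5 of 6 were tested, 1 was lower and 1 was higher, and the sums were 8.59 to 8.78 and 8.54 to 8.79. Of 4 oligodendrocyte miRNAs, 1 was higher, with sums of 12.97 to 13.56 and 13.00 to 13.47, and of 4 vessel miRNAs, 2 were higher, with sums of 10.68 to 10.83 and 10.63 to 10.91. Of 4 neuronal miRNAs, 1 was lower and 1 was higher, with sums of 14.92 to 15.06 and 14.96 to 15.11. Of the 2 choroid plexus miRNAs, miR-204-5p was lower, with sums of 9.06 to 9.52 and 8.66 to 9.29, and of 3 red blood cell miRNAs, 1 was lower, with sums of 9.05 to 9.80 and 8.87 to 9.50. For each of these lists the sums of the genotypes overlapped. The part of cell composition in the rise of miR-181a-5p and miR-181b-5p was not tested.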

How the data were processed

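LV walls of 16 mice were compared, with 1 array for each mouse, and groups were taken from the labels. The authors deposited, per the file headers, the Feature Extraction output of each array, whose spot signals are background-corrected intensity values without normalization between arrays. The labels give version 10.5.1.1 of that software and the file headers 10.7.3.1. In the study's methods, the arrays were quantile-normalized and the groups compared with a Student's t-test. The deposited table of total signal per miRNA was used as an alternative start.

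Outlier spots, as marked by the software, were dropped, and the remaining ones gave a mean for each of 4415 probes. Probe means were quantile-normalized and averaged by miRNA, a floor of 1 signal unit was applied, and the values were put on the log2 scale. Genotypes were compared with limma 3.58.1 in R 4.3.3 on the 495 miRNAs detected on at least 8 arrays, with a threshold of 0.05 on the adjusted p. Differences between members were compared with 2-sided exact permutation tests over the 12870 groupings. Intervals cover 95%. The scripts were tested on simulated data. Named miRNAs are the members, the other arms of the family, the 5 most correlated miRNAs and the ends of lists. The let-7g-5p value was added after the values were seen. The members and lists were chosen with earlier results of these data known. Precision is limited by the number of arrays, and the labels do not say more on how the 8 replicates of a group were taken than that they are biological replicates. Alternatives changed 1 choice at a time and covered scaling, background correction, floor, detection filter, outlier spots, probe summary, test, array weights, slide, replicate block and leaving out each mouse. Values of single members within slides were added after the data were seen.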

Additional observations from a re-analysis of the deposited data

Results flagged for a closer look

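MiR-181c-5p in Dgcr8+/- replicate 2 had a log2 signal of 7.86, far from the 7.25 to 7.44 of the other Dgcr8+/- mice. The same mouse gave the extreme values of both pairs that include miR-181c-5p. Its difference miR-181c-5p minus miR-181d-5p was 1.26, against 0.81 to 1.00 in the others, and its difference miR-181a-5p minus miR-181c-5p was 2.54, against 3.01 to 3.24. These are 3 of 20 groups searched for a mouse far from the rest, and chance marks about 1 group in 20. The 3 values share miR-181c-5p on 1 array and are not independent. Its array also had the lowest hybridisation spike-in signal, 13.1 on the log2 scale, and the lowest median signal before normalization, 5.27. The part of either in the miR-181c-5p value was not tested.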

How the results depend on the processing

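With no normalization, the log2 fold changes of miR-181a-5p, miR-181b-5p, miR-181a-1-3p and miR-181c-5p turned to −0.22, −0.28, −0.25 and −0.48, miR-181d-5p was −0.53, and 293 miRNAs were lower and 0 higher by limma (0 at an unadjusted p under 0.05; by the methods' t-test 2 unadjusted and 0 adjusted). With the labelling spike-ins, the values turned to −0.21, −0.28, −0.24 and −0.47, miR-181d-5p was −0.52, and 261 were lower and 0 higher (0 unadjusted by limma and by the methods' t-test). Both settings leave in the shift shared by most miRNAs. With these and with scaling to the 75th percentile, the c minus d change was 0.049 and lost its call, and the a minus c change was 0.26 and gained one. The 75th percentile turned miR-181d-5p to 0.0084 and brought miR-181a-1-3p past the threshold at 0.29. Cyclic loess turned miR-181c-5p to −0.017, brought miR-181a-1-3p (0.19) and a minus c (0.29) past the threshold, and c minus d lost its call at 0.063, as it did from the total gene signal at 0.038. Keeping the spots with an outlier mark turned miR-181c-5p to −0.10 and c minus d to −0.029.

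MiR-181d-5p passed the threshold with normexp (−0.051), a floor of 10 signal units, detection on all 16 arrays, no detection filter and the methods' t-test (each −0.090), the mean of log2 probe values (−0.11) and array weights (−0.10, with miR-181a-1-3p at 0.22). Normexp also brought the miR-181a-1 arm difference (−0.14), a minus c (0.19) and miR-181a-5p minus miR-181a-1-3p (0.14) past it, as the log2 probe mean did a minus c (0.21). The hairpins with unequal arms, 17 in the report, numbered 8 with cyclic loess, 35 with normexp, 10 with detection on all arrays, 118 with no filter, 4 with outlier spots kept, 11 with the log2 probe mean and 7 with the brightest probe. Within slide 1, miR-181a-1-3p was −0.073, a minus c was −0.036 and miR-181a-5p minus miR-181a-1-3p was 0.28. The causes were not tested.

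The replicate block (mice with the same number need not be related, with correlations of −0.14 to 0.50 between them) brought miR-181a-1-3p, 0.16, past the threshold (limma adjusted p = 0.0385) and changed no other call of a member. With the slide as a block no call of a member changed, and miR-181a-5p was 0.24 and miR-181b-5p 0.25.

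Leaving out each mouse in turn gave 133 to 151 lower and 126 to 170 higher miRNAs, 0.23 to 0.27 for miR-181a-5p, 0.23 to 0.28 for miR-181b-5p, 0.12 to 0.22 for miR-181a-1-3p, −0.00077 to 0.086 for miR-181c-5p and −0.11 to −0.076 for miR-181d-5p. Changes of pairs were −0.011 to 0.029 for a minus b, 0.11 to 0.17 for c minus d, 0.16 to 0.26 for a minus c, 0.31 to 0.37 for b minus d and 0.035 to 0.12 for miR-181a-5p minus miR-181a-1-3p, and the arm difference was −0.12 to −0.035. Hairpins with unequal arms numbered 5 (without WT replicate 4, WT replicate 5, Dgcr8+/- replicate 1 or Dgcr8+/- replicate 3) to 27 (without Dgcr8+/- replicate 2). Signals not detected on any array, as for miR-181c-3p, bound nothing here.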
